A study of Mus musculus with 23 samples.

Results

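The genes described here are 9 markers of the connective tissue cells of peripheral nerve, Pdgfra, Dcn, Pi16, Dpt, Clec3b, Osr2, Etv1, Inmt and Cldn1, taken by name from the 43068 genes listed for the crush libraries and the 22880 genes listed for the iKO libraries. They were measured by RNA sequencing of mouse sciatic nerves (SNs) in 23 libraries. Per the study's methods, a crushed SN was sampled as a piece distal to the injury. The crush experiment holds SNs of wild-type mice (2-month-old males, C57BL/6J per the study's methods and C57bl6 in the labels) at 3 days post crush (3 dpc, n = 4), the uninjured contralateral SNs (n = 4) and SNs of uncrushed surgery controls (n = 3). In the iKO experiment all mice, labelled as C57bl6 too, received tamoxifen at 8 to 10 weeks of age, and SNs were taken 3 months later. Dicer iKO mice (P0-CreERT2 -/+ Dicer1 flox/flox, n = 3) were compared with Dicer iKO controls (P0-CreERT2 -/- Dicer1 flox/flox, n = 3), and Dgcr8 iKO mice (P0-CreERT2 -/+ Dgcr8 flox/flox, n = 3) with Dgcr8 iKO controls (P0-CreERT2 -/- Dgcr8 flox/flox, n = 3). Within each of the 2 lines all mice thus carried the same floxed alleles and received the drug, and only the Cre differed by genotype. Between the lines the floxed gene differed too. Per the study's methods, mice of either sex were used unless stated otherwise. The P0-Cx32 promoter drives this Cre in myelinating Schwann cells (SCs), so the fibroblasts were not the recombined cells by design, and the study kept only mutants with visible myelin defects. Each library came from 1 mouse per the study's methods, which crushed and contralateral SNs share a mouse is not given in the sources used here, and p-values measure the spread between these libraries only.

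A nerve has 3 connective tissue layers. The epineurium is the loose outer coat with vessels and fat, the perineurium is a sleeve of flattened cells joined by tight junctions that forms the blood-nerve barrier together with the vessels, and the endoneurium is the space between the nerve fibres. Fibroblasts of these layers make collagen and proteoglycans, and after injury they take part in scar formation and in signalling to SCs and macrophages. Pdgfra, a receptor for platelet-derived growth factors, and Dcn, which encodes the collagen-binding proteoglycan decorin, are found across fibroblasts. Pi16 (a secreted peptidase inhibitor), Dpt (the matrix protein dermatopontin) and Clec3b (tetranectin, which binds plasminogen) are used to mark epineurial fibroblasts. Osr2 and Etv1 (transcription factors) and Inmt (a methyltransferase) are used to mark endoneurial fibroblasts, and Cldn1 encodes claudin-1, a tight junction protein of perineurial cells. Per the study's methods, peri- and epineurium were removed from nerves used for PCR. Whether this was done before sequencing is not given in the sources used here.

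Total counts were 6617716 to 12806066 per crush library and 5594859 to 10143244 per iKO library. Levels are given as CPM, counts divided by the TMM-scaled library size, and 3 counts, taken as the detection limit, equal 0.234 to 0.453 CPM in the crush and 0.296 to 0.536 CPM in the iKO libraries. The labels name different library kits for the experiments, so levels are compared within each experiment only. The 10 SC markers summed to 38482 to 43667 CPM in uncrushed, 43713 to 58132 CPM in contralateral and 2231 to 3386 CPM in crushed SNs, and the 10 macrophage markers to 159.8 to 185, 119.7 to 224 and 915 to 2049 CPM. In the iKO experiment the macrophage markers summed to 374 to 1198 CPM in Dicer iKO controls, 3999 to 7304 CPM in Dicer iKO, 362 to 427 CPM in Dgcr8 iKO controls and 2702 to 6443 CPM in Dgcr8 iKO. The SC markers summed there to 30232 to 50071, 24136 to 29859, 45746 to 49708 and 15789 to 30333 CPM. The targeted genes were measured over the whole transcript, of which only some exons are floxed. Dicer1 stood at 82.1 ± 0.924 CPM (SD, n = 3) in Dicer iKO and 89.1 ± 1.61 CPM (SD, n = 3) in its controls, log2 fold change -0.11 ± 0.08 (SE), adjusted p = 0.357 by edgeR's quasi-likelihood test. Dgcr8 stood at 44.9 ± 7.72 CPM (SD, n = 3) in Dgcr8 iKO and 38.3 ± 3.51 CPM (SD, n = 3) in its controls, log2 fold change 0.22 ± 0.15 (SE), adjusted p = 0.233. Neither difference passed, and summed counts over all exons do not check these labels. By PCR the study reported reduced Dicer mRNA in Dicer iKO, reduced Dgcr8 mRNA in Dgcr8 iKO and reduced let-7f in both.

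A gene is called up- or downregulated here where edgeR's test gave a fold change of at least 2 and a Benjamini-Hochberg adjusted p of at most 0.05 over all genes tested. In crushed against uncrushed SNs, 8 of the 9 genes were tested, 1 was upregulated (Pi16) and 1 downregulated (Clec3b), where 15.3% of all genes tested were upregulated and 21.1% downregulated. Against contralateral SNs the counts were again 1 (Pi16) and 1 (Clec3b) of 8, beside 14.6% and 13.6% of all genes tested. Both comparisons share the crushed libraries. In contralateral against uncrushed SNs none of the 7 genes tested was called by edgeR, and of all 17722 genes tested 0% were upregulated and 0% downregulated. At an unadjusted p under 0.05 that comparison held 2 of the 7 genes, both lower in contralateral SNs, and 3165 of all genes. DESeq2 called 0 of the 7, and 20 of all genes as downregulated. In Dicer iKO 1 of 9 genes was downregulated (Inmt, beside 1.64% of all genes) and 0 were upregulated (beside 7.37%), with 0 higher at an unadjusted p under 0.05 and 0 upregulated by DESeq2. In Dgcr8 iKO 3 of 9 were upregulated (Pi16, Cldn1 and Dpt, beside 13.4% of all genes) and 0 downregulated (beside 6.99%), with 1 lower at an unadjusted p under 0.05 (Osr2) and 0 downregulated by DESeq2. Where called, Pi16, Clec3b and Inmt passed the filter on low counts only through the group with the higher level. Their calls could thus go only 1 way. The same shares of all genes stand beside the counts of the other lists below. Only the share of upregulated genes in Dgcr8 iKO and of downregulated genes in Dicer iKO lay above that of all genes, on counts of 3 and 1. The macrophage sums were higher and the SC sums lower in every crushed and every mutant library than in any library of their controls, and thus moved with each of these calls. Their part in the results was not tested. Fewer cells with a transcript and less transcript per cell cannot be told apart in nerve tissue, here or for any gene below.

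**Figure D1:**
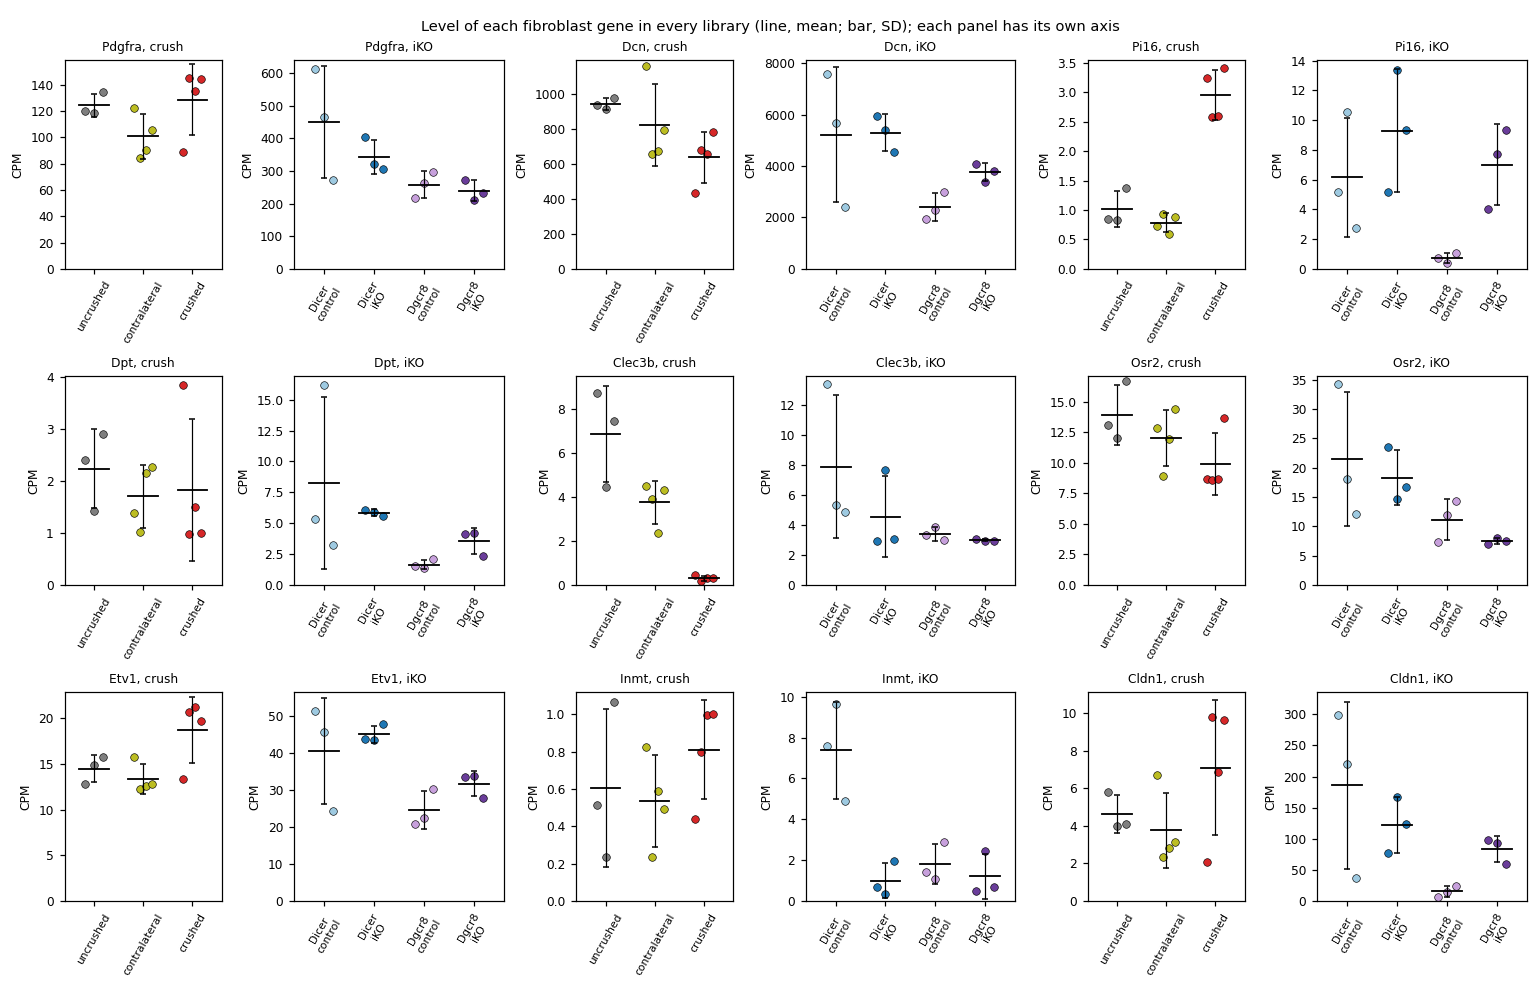
Level of each of the 9 genes in CPM (vertical axis, from 0, a separate axis in each panel) in every library of the crush groups and the iKO groups. Points are libraries, lines are means and bars are SDs. The 4 crushed libraries lay above all 7 other crush libraries for Pi16 and below them for Clec3b, and the 3 Dgcr8 iKO libraries lay above their 3 controls for Cldn1, Pi16, Dpt and Dcn.

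Levels of different genes were compared by TPM, transcript abundances that correct for transcript length, and only within a group. Dcn came first in every group, at 54.3 ± 16.6 TPM (SD, n = 3) in uncrushed SNs and 5854 ± 2787 TPM (SD, n = 3) in Dicer iKO controls. Pdgfra came second by its mean in every group, at 1.91 ± 0.562 TPM (SD, n = 3) in uncrushed SNs, and the lowest Dcn library lay above the highest Pdgfra library in every group. The crush TPM values are small because 1 ribosomal RNA transcript took 61.5% to 71.8% of the TPM of each crush library. In uncrushed SNs Osr2 (0.837 ± 0.181 TPM), Clec3b (0.733 ± 0.0777 TPM) and Etv1 (0.637 ± 0.255 TPM) followed (SD, n = 3), of which Clec3b overlapped both of the others and all 3 lay below every Pdgfra library. Cldn1, Dpt, Inmt and Pi16 came last there, with Pi16 at 0.0367 ± 0.0153 TPM (SD, n = 3). In Dgcr8 iKO controls Pi16 was again last at 0.547 ± 0.18 TPM (SD, n = 3), and in crushed SNs the last place was taken by Clec3b at 0.055 ± 0.0191 TPM (SD, n = 4).

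The positions of the genes on GRCm38 are chr5:75152292-75198215 (Pdgfra, plus strand), chr10:97479609-97518143 (Dcn, plus), chr17:29317680-29330593 (Pi16, plus), chr1:164796644-164824266 (Dpt, plus), chr9:123150946-123157432 (Clec3b, plus), chr15:35296098-35303305 (Osr2, plus), chr12:38779380-38870484 (Etv1, plus), chr6:55170626-55175043 (Inmt, minus) and chr16:26356642-26371841 (Cldn1, minus). All 9 are protein-coding in GENCODE M21 and no 2 lie on the same chromosome. Promoters of 6 of the 9 genes were matched by symbol in RefSeq's table for GRCm38.p6. The 3 genes upregulated together in Dgcr8 iKO are shown, as the 250 bases before the RefSeq start, 5′ to 3′ on the gene's strand, with capitals marking matches to the motifs searched:
Pi16, chr17:29318632-29318881, plus strand: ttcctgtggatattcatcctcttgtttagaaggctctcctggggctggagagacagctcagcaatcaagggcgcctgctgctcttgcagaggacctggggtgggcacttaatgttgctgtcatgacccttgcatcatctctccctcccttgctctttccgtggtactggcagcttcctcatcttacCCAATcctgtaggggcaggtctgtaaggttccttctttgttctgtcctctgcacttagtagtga
Dpt, chr1:164796413-164796662, plus strand: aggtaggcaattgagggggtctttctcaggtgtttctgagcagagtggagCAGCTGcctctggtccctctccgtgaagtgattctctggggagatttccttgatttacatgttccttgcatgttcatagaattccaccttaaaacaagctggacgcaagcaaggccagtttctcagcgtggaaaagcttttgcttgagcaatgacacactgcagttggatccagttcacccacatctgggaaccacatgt
Cldn1, chr16:26371840-26372089, minus strand: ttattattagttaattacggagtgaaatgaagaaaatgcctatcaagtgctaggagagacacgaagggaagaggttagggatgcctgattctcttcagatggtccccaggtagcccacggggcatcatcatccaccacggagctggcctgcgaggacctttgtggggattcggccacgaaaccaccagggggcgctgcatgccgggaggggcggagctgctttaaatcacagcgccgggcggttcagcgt
The motifs were AP-1 (TGANTCA), an E-box (CAGCTG, the same on both strands), an ETS site (CGGAAG), the TATA box (TATAAA) and the CCAAT box (CCAAT), each on both strands in the 300 bases up to 50 after the start. The capitals mark an E-box in Dpt and a CCAAT box in Pi16. Both genes hold an E-box in the 50 bases after the start as well, where Dpt also has TATAAA directly behind it. The Cldn1 window held none of the 5 motifs, nor did that of Pdgfra. Of all 32851 promoter windows in the table, 16.3% hold this E-box, 37.4% CCAAT, 13.6% TATAAA, 16.9% the ETS site and 7.81% AP-1, so these matches are common letters and no motif was shared by the 3 genes.

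Pdgfra did not pass either limit in any comparison. It stood at 120.0, 119 and 134 CPM in the 3 uncrushed, 123, 84.1, 90.4 and 106 CPM in the 4 contralateral and 88.6, 145, 135 and 145 CPM in the 4 crushed libraries. All 3 groups overlapped, with crushed replicate 1 below the other crushed libraries. The log2 difference was -0.07 ± 0.16, adjusted p = 0.695 for crushed against uncrushed and 0.22 ± 0.15, adjusted p = 0.211 for crushed against contralateral SNs. Among the iKO groups Pdgfra stood at 612, 466 and 273 CPM in Dicer iKO controls, 403, 321 and 307 CPM in Dicer iKO, 216, 262 and 297 CPM in Dgcr8 iKO controls and 274, 211 and 234 CPM in Dgcr8 iKO. Each mutant overlapped its controls, and the widest spread was among the Dicer iKO controls. The differences were -0.38 ± 0.27, adjusted p = 0.351 in Dicer iKO and -0.11 ± 0.16, adjusted p = 0.587 in Dgcr8 iKO. Among the other 5 PDGF ligands and receptors, all tested in each comparison, Pdgfb (a ligand made by endothelial cells and macrophages) was downregulated in crushed SNs, -1.10 ± 0.29, adjusted p = 0.00557 against uncrushed and -1.20 ± 0.20, adjusted p = 8.57e-05 against contralateral. Pdgfc, a ligand of the Pdgfra receptor, was upregulated in Dicer iKO (1.25 ± 0.19, adjusted p = 0.00564), and Pdgfd, a ligand of the beta receptor, was downregulated in Dgcr8 iKO (-1.18 ± 0.23, adjusted p = 0.00170).

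Dcn was the most abundant of the 9 genes and differed by less than 2-fold everywhere. Its levels were 939, 915 and 979 CPM in uncrushed, 1161, 660.1, 676 and 795 CPM in contralateral and 434, 680.1, 656 and 783 CPM in crushed SNs. Every crushed library lay below every uncrushed one, whereas crushed and contralateral libraries overlapped. The difference passed the adjusted p limit but not the fold limit, at -0.68 ± 0.17, adjusted p = 0.00414 against uncrushed and -0.50 ± 0.19, adjusted p = 0.0331 against contralateral SNs. Dcn stood at 7591, 5679 and 2423 CPM in Dicer iKO controls, 5963, 5395 and 4544 CPM in Dicer iKO, 1945, 2274 and 3008 CPM in Dgcr8 iKO controls and 4088, 3398 and 3794 CPM in Dgcr8 iKO. All Dgcr8 iKO libraries lay above their controls (0.64 ± 0.21, adjusted p = 0.0315, again under 2-fold), while in Dicer iKO the groups overlapped (0.02 ± 0.38, adjusted p = 0.968). Of its 2 listed transcripts, Dcn-201 took 63.6% ± 7.32 of the Dcn counts in Dgcr8 iKO and 49.9% ± 4.41 in its controls (SD, n = 3), and 58.1% ± 2.07 in Dicer iKO and 46.7% ± 1.55 in its controls (SD, n = 3). In the crush groups this share was 48.5% ± 2.31 (SD, n = 3), 45.8% ± 2.52 and 46.2% ± 3.17 (SD, n = 4) in uncrushed, contralateral and crushed SNs. These shares were not tested, and they rest on the authors' split of reads between transcripts of similar sequence.

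The family and the matrix genes around Dcn moved in both directions after crush. Of the 9 other small leucine-rich proteoglycans tested in crushed against uncrushed SNs, 2 were upregulated and 4 downregulated, with a median log2 difference of 0.24 beside -0.03 over all genes tested. Epyc (epiphycan, 2.22 ± 0.50, adjusted p = 0.00205) and Bgn (biglycan, 1.32 ± 0.13, adjusted p = 2.68e-06) were upregulated, and Ogn (osteoglycin, -3.85 ± 0.12, adjusted p = 2.30e-10) and Podn (podocan, -3.25 ± 0.13, adjusted p = 1.22e-09) downregulated. Against contralateral SNs the counts were 2 and 4 with these same 4 at the ends, at 2.44, 1.61, -3.84 and -3.35. In Dgcr8 iKO 3 of 9 were upregulated, led by Epyc (4.18 ± 0.22, adjusted p = 6.76e-07) and Bgn (2.22 ± 0.22, adjusted p = 2.20e-05), and 2 downregulated, Podn (-1.15 ± 0.16, adjusted p = 0.000202) and Ogn (-1.10 ± 0.22, adjusted p = 0.00214). In Dicer iKO 2 of 9 were upregulated, Epyc (2.51 ± 0.66, adjusted p = 0.0341) and Lum (lumican, 1.34 ± 0.33, adjusted p = 0.0279). Of 18 other fibroblast matrix genes tested, 5 were upregulated and 3 downregulated against uncrushed SNs, 7 and 1 in Dicer iKO, and 12 and 1 in Dgcr8 iKO. Their median log2 differences were -0.23, 0.91 and 1.16, beside -0.03, -0.01 and -0.01 over all genes. The collagen genes Col1a1 (1.80 ± 0.35, adjusted p = 0.0131) and Col3a1 (1.73 ± 0.47, adjusted p = 0.0373) led in Dicer iKO, and Col5a2 (1.97 ± 0.17, adjusted p = 8.31e-06) and Fbln1 (fibulin-1, 1.93 ± 0.32, adjusted p = 0.000650) in Dgcr8 iKO. Htra3, a secreted protease, was downregulated in all 4 comparisons of an injured or mutant group with its controls, with log2 values of -1.63, -1.48, -1.21 and -1.42.

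Of the epineurial genes, Pi16 rose after crush and in Dgcr8 iKO from levels near the detection limit. It stood at 0.854, 0.824 and 1.37 CPM in uncrushed, 0.735, 0.933, 0.587 and 0.887 CPM in contralateral and 3.24, 2.58, 2.6 and 3.41 CPM in crushed SNs. Every crushed library was higher than every other crush library, by a fitted 2.75-fold against uncrushed (log2 fold change 1.46 ± 0.31 (SE), adjusted p = 0.00131) and 3.37-fold against contralateral SNs (log2 fold change 1.75 ± 0.27 (SE), adjusted p = 4.20e-05). These values rest on 10, 7 and 9 counts in the uncrushed, 8, 12, 6 and 9 in the contralateral and 37, 29, 26 and 34 in the crushed libraries, and contralateral against uncrushed was not tested because the counts were too low. Pi16 thus entered both crush tests only through its counts in crushed libraries, so only an upward call was possible. The ratio of pooled counts per library size was 3.04 against uncrushed (95% exact interval 1.98 to 4.83, counting error only).

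The reads assigned to Pi16 were split between coding and non-coding transcripts. Counts on its protein-coding transcripts were 0, 1 and 3.81 in uncrushed, 4.37, 12, 0 and 7.03 in contralateral and 25.1, 13.7, 20.1 and 19.5 in crushed SNs. Counts on the retained-intron transcript Pi16-203 were 10, 6 and 5.21, 3.63, 0, 6 and 1.97 and 11.9, 15.3, 5.92 and 14.5 in the same order. In uncrushed SNs most of the few Pi16 counts thus lay on the transcript with the intron, and every crushed library had more coding counts than every other crush library. A split of so few reads between overlapping transcripts is uncertain and was not tested.

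**Figure D2:**
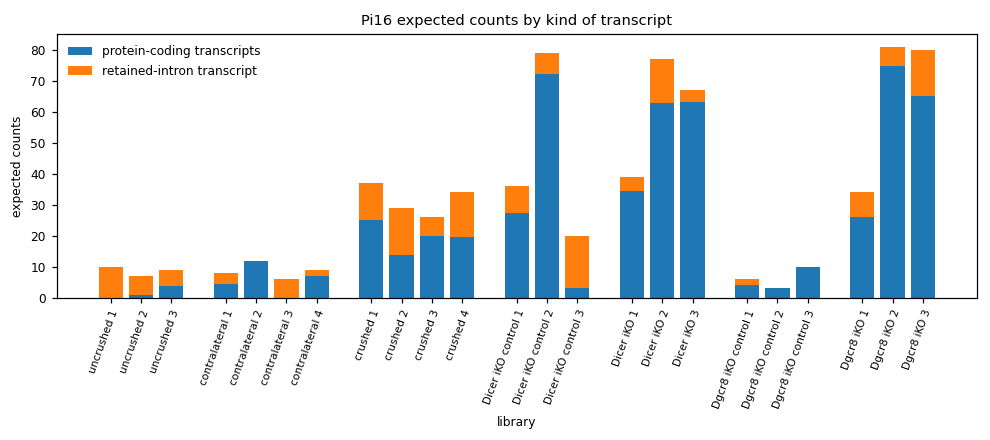
Expected counts of Pi16 (vertical axis, not scaled for depth) in each of the 23 libraries, split into protein-coding transcripts (lower part of each bar) and the retained-intron transcript (upper part). Uncrushed libraries held 0, 1 and 3.81 coding counts, and the Dgcr8 iKO libraries 26.1, 74.8 and 65.2.

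In the iKO experiment Pi16 stood at 0.706, 0.402 and 1.04 CPM in Dgcr8 iKO controls and 4.0, 7.69 and 9.32 CPM in Dgcr8 iKO. The groups did not overlap, and the fitted difference was 9.34-fold (log2 fold change 3.22 ± 0.43 (SE), adjusted p = 0.000154). The controls held 6, 3 and 10 counts, so the pooled ratio of 9.51 had a 95% exact interval of 5.93 to 16.1 (counting error only). In Dicer iKO it stood at 5.17, 13.4 and 9.33 CPM and in Dicer iKO controls at 5.17, 10.6 and 2.72 CPM. These groups overlapped (log2 fold change 0.58 ± 0.51 (SE), adjusted p = 0.444). The Dicer iKO controls were all above the Dgcr8 iKO controls, and the Dgcr8 iKO values lay within the range of the Dicer groups.

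Dpt was low in every group. It stood at 2.39, 1.41 and 2.9 CPM in uncrushed, 1.38, 1.01, 2.15 and 2.27 CPM in contralateral and 3.85, 0.979, 1.5 and 1.0 CPM in crushed SNs, where crushed replicate 1 was above all other crush libraries and the other crushed libraries were at the low end. The differences were -0.37 ± 0.48, adjusted p = 0.500 against uncrushed and 0.01 ± 0.42, adjusted p = 0.983 against contralateral SNs. Without crushed replicate 1, Dpt passed both limits against uncrushed SNs (-1.08, adjusted p = 0.0255). That library also had the highest sum of the 8 adipocyte markers of its group (18 CPM, against 3.02, 3.1 and 4.21 CPM), and the part of this in the result was not tested. In Dgcr8 iKO, Dpt stood at 4.12, 4.18 and 2.33 CPM against 1.53, 1.34 and 2.08 CPM in its controls. All mutant libraries were above the controls (log2 fold change 1.08 ± 0.36 (SE), adjusted p = 0.0286), a call that was lost in the fit with the replicate block (adjusted p = 0.0661), in 1 fit over all groups (adjusted p = 0.111) and without Dgcr8 iKO control replicate 1 (0.0958) or 2 (0.0834) or Dgcr8 iKO replicate 1 (0.103) or 2 (0.0925). In the iKO experiment the replicate block joins libraries of different mice by their number. In Dicer iKO the level was 6.1, 5.91 and 5.57 CPM against 5.31, 16.2 and 3.26 CPM, with overlap and a difference of -0.49 ± 0.54, adjusted p = 0.549.

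Clec3b showed the largest difference of the 9 genes. It stood at 8.72, 4.47 and 7.48 CPM in uncrushed and 4.5, 3.89, 2.35 and 4.33 CPM in contralateral SNs, and at 0.437, 0.178, 0.30 and 0.301 CPM in crushed SNs. The crushed libraries were at or next to the detection limit, with 5, 2, 3 and 3 counts, and lay below all others. The fitted difference was -4.57 ± 0.36, adjusted p = 3.17e-07 against uncrushed and -3.72 ± 0.35, adjusted p = 2.69e-07 against contralateral SNs. From pooled counts, uncrushed SNs held 23.2 times the crushed level (95% exact interval 13.2 to 44.3) and contralateral SNs 12.4 times (95% exact interval 7.07 to 23.8), counting error only. Contralateral SNs had a lower mean than uncrushed SNs, 3.77 ± 0.981 CPM (SD, n = 4) against 6.89 ± 2.18 CPM (SD, n = 3), a difference of -0.95 ± 0.27, adjusted p = 0.142 that did not pass. The adipocyte markers, also expressed in the fat of the epineurium, summed to 29.5 to 38.5 CPM in uncrushed, 10.5 to 17.6 CPM in contralateral and 3.02 to 18 CPM in crushed SNs, with 3 of the 8 at no more than 3 counts in every uncrushed library (Adipoq, Cidec and Cfd). Their part in the result was not tested. In the iKO experiment Clec3b stood at 13.4, 5.35 and 4.89 CPM in Dicer iKO controls, 2.92, 7.65 and 3.06 CPM in Dicer iKO, 3.29, 3.89 and 3.01 CPM in Dgcr8 iKO controls and 3.06, 2.94 and 2.91 CPM in Dgcr8 iKO, with overlap in both comparisons (-0.81 ± 0.52, adjusted p = 0.302 and -0.19 ± 0.28, adjusted p = 0.600).

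The other epineurial genes likewise went both ways. Of 14 tested in crushed against uncrushed SNs, 3 were upregulated and 5 downregulated, with a median log2 difference of 0.66. The summed level of the 15 others on the list was nevertheless lower in every crushed library. It was 507 to 604 CPM in crushed, 781 to 853 CPM in uncrushed and 858 to 1068 CPM in contralateral SNs. Pcolce2, an enhancer of procollagen processing (2.75 ± 0.20, adjusted p = 1.39e-07), and Sfrp4, a secreted Wnt antagonist (2.69 ± 0.32, adjusted p = 1.29e-05), were upregulated, and Mfap5, a microfibril protein, was downregulated (-4.17 ± 0.16, adjusted p = 6.80e-10). Against contralateral SNs the counts were also 3 and 5, with Pcolce2 at 3.33, Sfrp4 at 2.89 and Mfap5 at -4.46. In Dgcr8 iKO 3 of 14 were upregulated, among them Pcolce2 (2.66 ± 0.55, adjusted p = 0.00237), and 2 downregulated, Mfap5 (-1.58 ± 0.26, adjusted p = 0.000573) and Ly6c1 (-1.50 ± 0.17, adjusted p = 5.69e-05). In Dicer iKO 0 of 13 were upregulated and 1 was downregulated, the protease gene Adamts5 (-1.01 ± 0.16, adjusted p = 0.00593). The sum was 1253 to 1482 CPM in Dgcr8 iKO against 1551 to 1721 CPM in its controls. For Dicer iKO it was 1173 to 1298 CPM against 1320 to 1460 CPM.

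**Figure D3:**
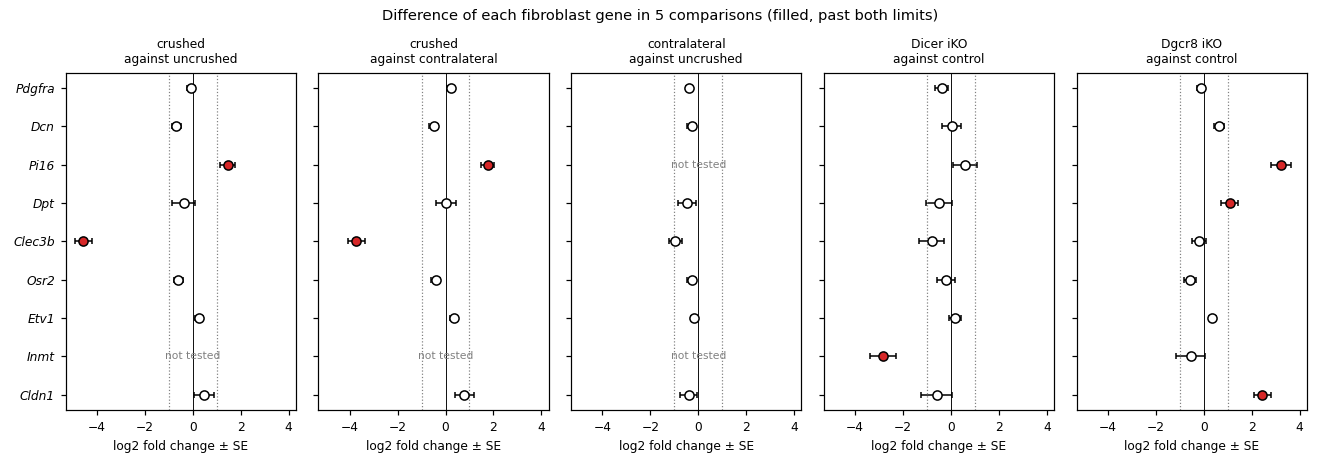
Log2 fold change with its SE (horizontal axis) for the 9 genes (vertical axis) in each of 5 comparisons, from edgeR's quasi-likelihood fits. Filled points passed the fold and adjusted p limits, and dotted lines mark the 2-fold limit. Pi16 passed upward in 3 comparisons, Clec3b downward in 2, Cldn1 and Dpt upward in Dgcr8 iKO and Inmt downward in Dicer iKO.

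The endoneurial transcription factors Osr2 and Etv1 differed by less than 2-fold in all comparisons. Osr2 stood at 13.1, 12 and 16.6 CPM in uncrushed, 12.9, 8.95, 11.9 and 14.4 CPM in contralateral and 8.66, 8.54, 8.69 and 13.6 CPM in crushed SNs. Crushed replicates 1 to 3 lay together below every library of the other groups, and crushed replicate 4 lay among the controls. The difference passed the adjusted p limit against uncrushed SNs (-0.60 ± 0.21, adjusted p = 0.0215) and not against contralateral SNs (-0.41 ± 0.19, adjusted p = 0.0678). After tamoxifen Osr2 stood at 34.3, 18.1 and 12.1 CPM in Dicer iKO controls, 23.6, 14.6 and 16.7 CPM in Dicer iKO, 7.3, 11.9 and 14.2 CPM in Dgcr8 iKO controls and 6.94, 7.97 and 7.45 CPM in Dgcr8 iKO. Both mutants overlapped their controls (-0.22 ± 0.37, adjusted p = 0.707 and -0.58 ± 0.25, adjusted p = 0.0745).

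Etv1 stood at 12.8, 14.8 and 15.7 CPM in uncrushed, 15.7, 12.2, 12.6 and 12.8 CPM in contralateral and 13.3, 20.6, 21.2 and 19.7 CPM in crushed SNs. Crushed replicates 2 to 4 were above all other crush libraries, and crushed replicate 1 lay among the controls. The difference was 0.26 ± 0.16, adjusted p = 0.177 against uncrushed and 0.35 ± 0.14, adjusted p = 0.0445 against contralateral SNs, the latter past the adjusted p limit only. In the iKO experiment Etv1 stood at 51.4, 45.7 and 24.3 CPM in Dicer iKO controls, 43.9, 43.6 and 47.8 CPM in Dicer iKO, 20.7, 22.4 and 30.3 CPM in Dgcr8 iKO controls and 33.5, 33.7 and 27.8 CPM in Dgcr8 iKO, with overlap in both comparisons (0.16 ± 0.25, adjusted p = 0.673 and 0.37 ± 0.16, adjusted p = 0.0929). The retained-intron transcript Etv1-212 took 11.1% ± 11.6 of the Etv1 counts in uncrushed (SD, n = 3), 24% ± 15.1 in contralateral and 11.9% ± 4.37 in crushed SNs (SD, n = 4). Its share was 33.2% ± 9.48 in Dicer iKO controls, 42% ± 12 in Dicer iKO, 22.5% ± 12.7 in Dgcr8 iKO controls and 39.2% ± 5.92 in Dgcr8 iKO (SD, n = 3). These shares were not tested, and part of the summed level is not coding sequence.

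Inmt was too low to test in the crush experiment, at 0.513, 0.235 and 1.07 CPM in uncrushed, 0.827, 0.233, 0.587 and 0.493 CPM in contralateral and 0.437, 0.801, 0.999 and 1.0 CPM in crushed SNs. No library there held more than 10 counts of it. In the iKO libraries Inmt stood at 7.61, 9.63 and 4.89 CPM in Dicer iKO controls and at 0.663, 0.348 and 1.95 CPM in Dicer iKO. All Dicer iKO libraries were below the controls, and Inmt was downregulated by a fitted 7.14-fold (log2 fold change -2.84 ± 0.53 (SE), adjusted p = 0.0113). The mutants held 5, 2 and 14 counts, and pooled controls held 7.2 times their level (95% exact interval 4.55 to 11.9, counting error only). The call was lost with the replicate block (adjusted p = 0.0629), which joins different mice, and without Dicer iKO control replicate 2 (adjusted p = 0.0537). The log2 value was -3.76 without Dicer iKO replicate 3. In the Dgcr8 experiment Inmt stood at 1.41, 1.07 and 2.91 CPM in controls and 0.471, 2.47 and 0.699 CPM in mutants. These overlapped (log2 fold change -0.54 ± 0.60 (SE), adjusted p = 0.493), and the Dgcr8 iKO controls were all below the Dicer iKO controls. The adipocyte markers summed to 61.9, 224 and 222 CPM in the Dicer iKO controls and 80.9, 20.0 and 50.5 CPM in Dicer iKO. There, 7 of the 8 were at no more than 3 counts in every mutant library and only Plin4 was tested in the comparison. The 8 skeletal muscle markers summed to 3.48 to 22.5 and 1.59 to 3.48 CPM, with 1 and 4 of the 8 at no more than 3 counts in every library. The part of either in the result was not tested.

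Other genes of the endoneurial list mostly rose where they changed, whereas none of Osr2, Etv1 and Inmt was called upregulated. Of 15 tested after crush, 5 were upregulated and 1 downregulated against uncrushed, and the same numbers against contralateral SNs. Of all genes tested, 15.3% were upregulated and 21.1% downregulated against uncrushed, and 14.6% and 13.6% against contralateral SNs. Wif1, a secreted Wnt inhibitor (3.78 ± 0.37, adjusted p = 2.74e-06 and 5.58 ± 0.46, adjusted p = 7.13e-08), and Cdkn2a, a cell cycle inhibitor (1.85 ± 0.39, adjusted p = 0.00113 and 1.88 ± 0.40, adjusted p = 0.000774), rose, and Mme, the peptidase neprilysin, fell (-3.78 ± 0.11, adjusted p = 1.35e-10 and -3.97 ± 0.09, adjusted p = 3.23e-13). In Dicer iKO 4 of 14 were upregulated (beside 7.37% of all genes) and 0 downregulated (beside 1.64%). In Dgcr8 iKO 6 of 14 were upregulated (beside 13.4%) and 1 downregulated (beside 6.99%). Wif1 led both, at 4.78 ± 0.73, adjusted p = 0.00587 and 7.20 ± 0.42, adjusted p = 1.12e-06, before Meox1, a homeobox gene, at 2.35 ± 0.29, adjusted p = 0.00312 and 2.82 ± 0.19, adjusted p = 2.28e-06. Wif1 was at or below 2 counts in every library of both control groups, so that its fitted values depend on the fit's prior. Its pooled ratios were 29.3 in Dicer iKO (95% exact interval 11.1 to 109) and 175 in Dgcr8 iKO (48.1 to 1451), counting error only. The 15 others on the endoneurial list summed to 2834 to 3456 CPM in uncrushed and 2657 to 3533 CPM in contralateral SNs. In crushed SNs their sum was 4269 to 6830 CPM. In Dicer iKO it was 17716 to 20975 CPM against 5118 to 9745 CPM in its controls. For Dgcr8 iKO it was 17132 to 20983.5 CPM against 6106 to 6657 CPM. Mme is also expressed by SCs, and which cells made the other transcripts of this list was not tested.

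Cldn1, the perineurial gene, rose in Dgcr8 iKO and varied widely among the Dicer iKO controls. It stood at 6.24, 14.7 and 24.6 CPM in Dgcr8 iKO controls and 98, 92.5 and 60.1 CPM in Dgcr8 iKO. All mutants were above all controls, by a fitted 5.44-fold (log2 fold change 2.44 ± 0.36 (SE), adjusted p = 0.000282). In Dicer iKO it stood at 76.5, 167 and 123 CPM and in Dicer iKO controls at 299.6, 220.4 and 37.1 CPM. The Dicer groups overlapped because control replicate 3 was below the mutants and the other 2 controls above them (log2 fold change -0.60 ± 0.64 (SE), adjusted p = 0.532). Without Dicer iKO control replicate 3, Cldn1 passed both limits as downregulated in Dicer iKO (-1.09, adjusted p = 0.0282). The Dgcr8 iKO libraries thus lay within the range of the Dicer iKO controls, and all Dgcr8 iKO controls below all Dicer iKO controls.

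The other perineurial genes varied in the same libraries. Of the 17 others, 7 were upregulated and 0 downregulated in Dgcr8 iKO, with a median log2 difference of 1.10 beside -0.01 over all genes. In Dicer iKO 1 was upregulated and 1 downregulated, with a median of -0.86 beside -0.01. Dicer iKO control replicate 3 was the lowest of its group for 15 of the 17, and Dicer iKO control replicates 1 and 2 were the 2 highest of all 12 libraries for 11 of the 17. All Dgcr8 iKO libraries lay above all their controls for 8 of the 17 and below them for 4. These 4, named after their values were seen, were Slc2a1 (-0.55 ± 0.13, adjusted p = 0.00632), Itgb4 (-0.81 ± 0.22, adjusted p = 0.0107), Tjp1 (-0.63 ± 0.17, adjusted p = 0.0113) and Sbspon (-0.50 ± 0.18, adjusted p = 0.0388), all under 2-fold. They are among the abundant genes of the list, and the summed level of the 17 was 939 to 1226 CPM in Dgcr8 iKO against 1162 to 1592 CPM in its controls, with overlap, while its median difference was positive. In the Dicer experiment the sum was 1198 to 1431 CPM in mutants and 1551 to 2514 CPM in controls. Crabp2, which binds retinoic acid, was upregulated in both mutants (1.89 ± 0.55, adjusted p = 0.0462 and 4.53 ± 0.30, adjusted p = 2.28e-06), while Itgb4, the hemidesmosome integrin that SCs express too, was downregulated in Dicer iKO (-1.11 ± 0.16, adjusted p = 0.00482). Whether a varying amount of perineurium in the dissected nerves had a part in these results was not tested.

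**Figure D4:**
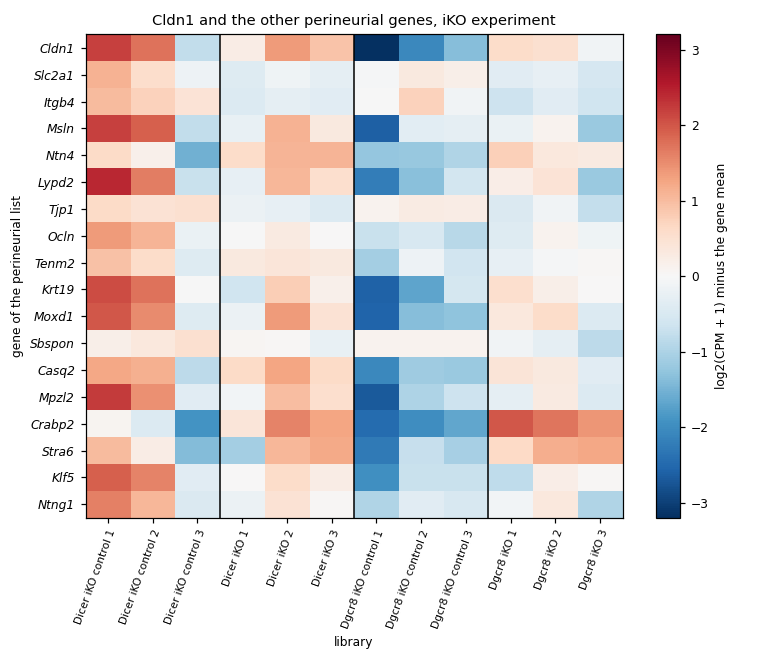
Log2(CPM + 1) of Cldn1 and 17 other perineurial genes (rows) in the 12 iKO libraries (columns), minus each gene's mean over these libraries, with red for higher and blue for lower. Dicer iKO control replicates 1 and 2 are above the mean in 18 and 17 of the 18 rows, and the Dgcr8 iKO controls are below it in 16, 14 and 15.

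In the crush experiment Cldn1 stood at 5.81, 4.0 and 4.12 CPM in uncrushed, 6.71, 2.33, 2.84 and 3.15 CPM in contralateral and 2.1, 9.79, 6.89 and 9.63 CPM in crushed SNs. Crushed replicates 2 to 4 were above all other crush libraries and crushed replicate 1 was the lowest of all. The differences were 0.46 ± 0.41, adjusted p = 0.325 against uncrushed and 0.78 ± 0.40, adjusted p = 0.101 against contralateral SNs. The second passed both limits without crushed replicate 1 (1.06, adjusted p = 0.00428) or without contralateral replicate 1 (1.22, adjusted p = 0.0186). Of 14 other perineurial genes tested after crush, 2 were upregulated, Crabp2 (6.39 ± 0.21, adjusted p = 2.37e-10 against uncrushed) and Stra6, a retinol transporter (2.70 ± 0.33, adjusted p = 1.91e-05), and 2 downregulated, Sbspon (-2.49 ± 0.09, adjusted p = 6.83e-10) and Itgb4 (-1.72 ± 0.11, adjusted p = 4.99e-08). The 17 others on the list summed to 461 to 504 CPM in crushed SNs. In uncrushed SNs this sum was 661 to 704 CPM, and in contralateral SNs 719 to 890 CPM. Of 11 other claudin and tight junction genes tested, 0 were upregulated and 4 downregulated against uncrushed SNs, led by Cldn19, the claudin of SC myelin (-4.64 ± 0.13, adjusted p = 1.35e-10), and Cldn11 (-3.51 ± 0.30, adjusted p = 6.72e-07). In Dgcr8 iKO 0 of 13 others were upregulated and 3 downregulated, among them Cldn14 (-2.08 ± 0.32, adjusted p = 0.000377) and Cldn5, the claudin of endothelial cells (-1.20 ± 0.14, adjusted p = 5.70e-05), so that Cldn1 was the 1 gene of this list upregulated there.

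The effects of the 2 mutants on the 9 genes were also compared directly, as the Dgcr8 iKO difference minus the Dicer iKO difference. None of the 9 passed an adjusted p of 0.05 by edgeR, where 0.0148% of all genes did (2 of 13552). At an unadjusted p under 0.05 there were 4 of the 9, beside 1861 of all 13552 genes. DESeq2 called 1 of the 9 (Pi16), beside 240 of all genes. The differences were 3.05 ± 0.85, adjusted p = 0.172 for Cldn1, 2.64 ± 0.76, adjusted p = 0.184 for Pi16, 2.31 ± 0.91, adjusted p = 0.304 for Inmt and 1.57 ± 0.70, adjusted p = 0.346 for Dpt. For the other 5 genes they lay between -0.36 and 0.62 on the log2 scale. Without Dicer iKO control replicate 3 the difference passed for Cldn1 (3.54, adjusted p = 0.00756) and Pi16 (3.00, adjusted p = 0.0347). In that fit 401 of all 13791 genes tested passed.

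Single libraries were high or low for most of the 9 genes together. Dicer iKO control replicate 3 was the lowest of its group for 9 of the 9 genes, where it was the lowest for 38.9% of the 12478 genes tested in all 5 comparisons. Uncrushed replicate 2 was the lowest of its group for 8 of the 9 (21.0% of all genes) and contralateral replicate 2 for 7 (17.4%). Dgcr8 iKO control replicate 3 was the highest of its group for 8 of the 9 (34.6% of all genes), and uncrushed replicate 3 for 7 (21.0%). Dicer iKO control replicate 3 also had the highest SC marker sum of its group (50071 CPM, against 30232 and 39473 CPM) and the lowest macrophage marker sum (374 CPM, against 1198 and 718 CPM). The part of tissue make-up in these orders was not tested.

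**Figure D5:**
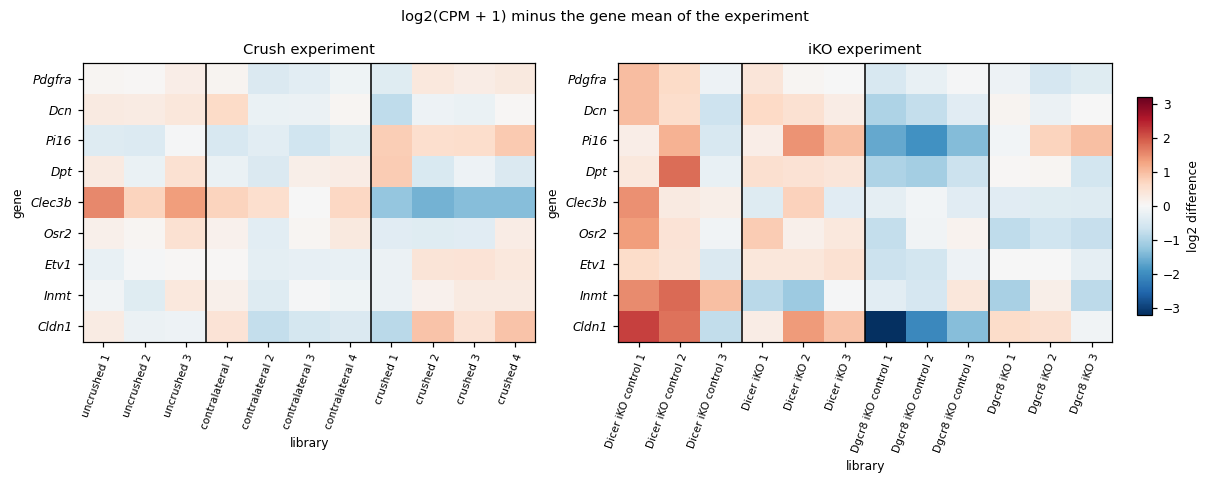
Log2(CPM + 1) of the 9 genes (rows) in the 11 crush and 12 iKO libraries (columns), minus each gene's mean over the experiment, with red for higher and blue for lower. Clec3b is blue in the 4 crushed libraries, and all 9 genes are below their mean in Dgcr8 iKO control replicate 1.

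Injury-activated mesenchymal genes, which nerve fibroblasts switch on in wounds and which SCs share in part, went both ways. Against uncrushed SNs 8 of 20 were upregulated and 5 downregulated, among them Tnc upward (tenascin-C, 4.69 ± 0.22, adjusted p = 4.03e-09) and Lox (lysyl oxidase, -4.07 ± 0.23, adjusted p = 2.03e-08) and Tagln (-1.89 ± 0.14, adjusted p = 1.87e-07) downward. In Dicer iKO 8 of 19 were upregulated, led by Cthrc1 (4.08 ± 0.48, adjusted p = 0.00285) and Postn (periostin, 3.06 ± 0.61, adjusted p = 0.0135), and 1 was downregulated, Angptl1 (-1.80 ± 0.36, adjusted p = 0.0137). In Dgcr8 iKO 10 of 20 were upregulated, led by Postn (6.46 ± 0.28, adjusted p = 2.87e-07) and Cthrc1 (4.32 ± 0.27, adjusted p = 1.72e-06), and 5 downregulated, with Dlk1 lowest (-4.50 ± 0.60, adjusted p = 0.000153), at 1 count in each mutant library. Pooled controls held 25.2 times the Dlk1 level of the mutants (95% exact interval 8.27 to 125, counting error only). Of 8 endothelial markers 3 were upregulated in each crush comparison and none was called in either mutant. Of 7 pericyte and smooth muscle markers 1 was downregulated in each crush comparison and in Dicer iKO, the potassium channel gene Kcnj8. In Dgcr8 iKO 1 of the 7 was upregulated, Cspg4 (1.19 ± 0.21, adjusted p = 0.00108), and 2 were downregulated, Kcnj8 (-2.33 ± 0.22, adjusted p = 1.67e-05) and Abcc9 (-1.02 ± 0.19, adjusted p = 0.00108). Beside these counts, 15.3% of all genes tested were upregulated and 21.1% downregulated against uncrushed SNs, and 14.6% and 13.6% against contralateral SNs. In Dicer iKO these shares were 7.37% and 1.64%, and in Dgcr8 iKO 13.4% and 6.99%. In contralateral against uncrushed SNs no gene of any list was called.

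The genes nearest to each of the 9 in pattern over the 7 group means, by Euclidean distance of log2(CPM + 1) centred within each experiment among 12478 genes, were Cped1, Kif26a and Arl4a for Pdgfra (distances 0.186 to 0.254). For Dcn they were P2ry1, Gpc3 and Ltbp4 (0.292 to 0.296). For Pi16 they were Qpct, Lbp and Fzd1 (0.415 to 0.583), for Dpt Tmeff2, Gm5784 and Homer2 (0.181 to 0.219), and for Clec3b F3, Shisa3 and Cpxm2 (0.558 to 0.617). Osr2 was nearest to Cyp27a1, Selenbp1 and Scn4b (0.245 to 0.331), Etv1 to Itpr2, Zfp947 and Vav2 (0.151 to 0.193), and Inmt to Fhl1, Smpdl3b and Cavin2 (0.778 to 0.879). For Cldn1 they were Moxd1, Ildr2 and Fbln1 (0.592 to 0.928). Moxd1 is on the perineurial list, and it stood at 47.5, 34.1 and 8.15 CPM in Dicer iKO controls, 9.81, 30.2 and 15.9 CPM in Dicer iKO, 1.06, 3.75 and 4.05 CPM in Dgcr8 iKO controls and 14.6, 17.3 and 8.04 CPM in Dgcr8 iKO. It was high in Dicer iKO control replicates 1 and 2 and low in replicate 3, in the same order as Cldn1. The nearest gene was farther away for Inmt than for any other of the 9.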

How the data were processed

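The authors trimmed reads with Trimmomatic, aligned them with STAR to GRCm38 and quantified Ensembl transcripts with RSEM (release not given in the sources used here). The deposited expected counts, estimated per transcript by the authors and not normalized, were summed per gene and rounded for every test. The deposited TPM values, scaled by the authors to transcript length and library size, were summed per gene and used only to order genes within a group. Per the labels, the crush libraries were made with a SMARTer stranded pico-input kit and the iKO libraries with TruSeq stranded and Ribo-Zero, whereas the study's methods describe the latter alone. The third uncrushed library carries the number 4 in a second label, and the number in the title (3) was kept.

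For each comparison, genes were kept by filterByExpr (minimum count 10), scaled by TMM and tested by the quasi-likelihood test of edgeR 4.0.16 (R 4.3.3) over the 2 groups, with Benjamini-Hochberg adjustment, a fold change of at least 2 and an adjusted p of at most 0.05. The SE is the log2 fold change divided by the root of F. The difference between mutants was an interaction term over 12 libraries. Alternatives were RLE scaling, other filters, DESeq2 1.42.0, 1 fit over all groups, a replicate block and leaving out each library. The tests were checked on simulated data, with 1 spread for all genes and changes set only in well-counted genes. This check does not cover calls that rest on few counts, as for Pi16, Clec3b and Inmt. No 2 replicates among 27 pairs were copies (chi-square per degree of freedom of at least 3.86). Symbols and positions came from GENCODE M21 (42451 of 43068 and 22647 of 22880 genes matched). Named genes were the 9 markers, up to 2 highest and 2 lowest called genes per list and comparison, and the 3 genes nearest in pattern. From the lists, 1 such gene is not reported here. The 9 genes and the lists were chosen with earlier results of these data known. Intervals cover counting error only.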

Additional observations from a re-analysis of the deposited data

Results flagged for a closer look

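In groups of 4 libraries, a library was singled out where its gap to the nearest other exceeded Dixon's 95% limit, which chance passes in about 1 of 20 groups. Of 18 such tests over the 9 genes, 2 passed. Osr2 in crushed replicate 4 stood at 13.6 CPM, above the other crushed libraries at 8.66, 8.54 and 8.69 CPM. Etv1 in contralateral replicate 1 stood at 15.7 CPM, above the other contralateral libraries at 12.2, 12.6 and 12.8 CPM. Without crushed replicate 4 the Osr2 log2 difference was -0.84 (adjusted p = 0.00133) against uncrushed and -0.62 (adjusted p = 0.00348) against contralateral SNs, and without contralateral replicate 1 the Etv1 difference was 0.44 (adjusted p = 0.0227), all by edgeR's quasi-likelihood test and under 2-fold.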

How the results depend on the processing

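Beside 50 values for single genes, 683 values under the alternatives kept their direction and their side of the limits, 8 fell below the limits, 7 passed them and 18 changed sign, all 18 among differences not called in either fit. With at least 10 counts asked of every library, 0 of the 9 genes were upregulated and 0 downregulated in both crush comparisons, as Pi16 and Clec3b were no longer tested (6 of 9 tested), and 0 were downregulated in Dicer iKO, as Inmt was not tested (8 of 9 tested). In Dgcr8 iKO 2 were upregulated, as Pi16 was no longer tested (7 of 9 tested). The deviations of same-numbered libraries correlated at -0.17 to 0.18 over the 5 comparisons. Only crushed and contralateral SNs can share a mouse, so in the iKO experiment the replicate block joins different mice. Same-numbered libraries of crushed and contralateral SNs correlated at -0.094 to 0.18 (mean 0.053), and differently numbered ones at -0.25 to 0.13 (mean -0.018). These ranges overlap and rest on few pairs, so they cannot decide whether the replicate numbers pair these libraries. With the replicate number as a block, 0 of the 9 genes were downregulated in Dicer iKO (Inmt -2.86, adjusted p = 0.0629), the Dpt call in Dgcr8 iKO was lost, no other call on the 9 genes changed, and of all genes 548 were upregulated and 92 downregulated in Dicer iKO, against 961 and 214 without it. DESeq2 called 1 gene in the comparison of the mutant effects, Pi16 (2.68, adjusted p = 0.0358), and 240 of all genes, against 2 by edgeR, 20 without a filter and 0 with the block. Without a filter, 13 genes were upregulated and 128 downregulated in contralateral against uncrushed SNs, against 0 and 0, and in crushed against uncrushed SNs 1747 were upregulated with at least 10 counts in every library, against 2673. Leaving out 1 library at a time gave 1 to 2 downregulated of the 9 genes against uncrushed SNs, 1 to 2 upregulated against contralateral SNs, 0 to 2 downregulated in Dicer iKO and 0 to 2 with different effects of the mutants. The sign changes were, against uncrushed SNs, Pdgfra without a filter (0.16) and on leaving out libraries (-0.18 to 0.0442). Against contralateral SNs the Dpt difference was -0.0397 with at least 10 counts in every library, -0.037 over protein-coding genes, -0.000245 by DESeq2, -0.0153 in 1 fit over all groups, -0.0868 with the block and -0.70 to 0.20 on leaving out libraries. In Dicer iKO, leaving out libraries gave -0.50 to 0.29 for Osr2, -0.87 to 0.45 for Dpt, -0.32 to 0.40 for Dcn and -0.10 to 0.37 for Etv1, and in the comparison of the mutants -0.0166 to 0.53 for Pdgfra and -0.00437 to 0.47 for Etv1. The cause of these changes was not tested. Pi16, Clec3b and Inmt rest on few counts in at least 1 group, which limits the precision of their fold changes.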
